A study of Mus musculus with 10 samples.

Results

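The genes examined here were 9 genes of the ion channels that mature sperm use to sense and respond to their surroundings: Catsper1, Catsper2, Catsper3, Catsper4, Catsperb, Catsperg1, Catsperg2, Kcnu1 and Hvcn1. They were chosen by name, and all 9 were found among the 28125 genes of the deposited scRNA-seq matrix and the 30670 genes of the scATAC-seq matrix. Both matrices come from nuclei of mouse testis in which RNA and open chromatin were read together, and both give 1 value per gene for each of 13 cell populations named by the authors. The libraries, 1 per condition and assay, were from wild-type C57BL/6J mice at 11, 17 and 25 days postpartum (dpp), from 8-week-old Cre/+ mice and from 8-week-old Nfya-CKO mice. Both 8-week-old groups carry Cre under the Stra8 promoter, and the Nfya-CKO mice are Nfya fl/fl, so that exons of Nfya are removed in germ cells that express Stra8. Nfya encodes the DNA-contacting subunit of the CCAAT-binding factor NF-Y. Every population value pools the cells of all libraries, so the values of a population hold no replicates, no spread could be computed, and the differences below carry no p-values.

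CatSper is a calcium channel of the sperm tail that opens at alkaline pH and is needed for hyperactivated swimming. Its pore is built from the products of Catsper1, Catsper2, Catsper3 and Catsper4, while Catsperb, Catsperg1 and Catsperg2 encode auxiliary subunits with large extracellular parts. Kcnu1 encodes SLO3, the sperm potassium channel that hyperpolarizes the membrane, and Hvcn1 encodes the voltage-gated proton channel that exports acid. The proteins act after the cells leave the testis, so the RNA measured here precedes their use.

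The germ cell populations, in the order of spermatogenesis, began with undifferentiated and then differentiating spermatogonia (undiff. SpG and diff. SpG). The spermatocytes were preleptotene (pL), early leptotene to zygotene (eL/L/Z), leptotene to early pachytene (L/Z/eP), middle and late pachytene (mP/lP) and diplotene (D), and the haploid cells were round (RS) and elongating (ES) spermatids. The other 4 were Sertoli cells, other somatic cells, an unknown group of 99 cells, and Nfya-CKO spermatogonia, 491 cells that all came from the library labelled Nfya-CKO. RNA from nuclei was collected from 45250 cells, with a median of 1446.5 to 7603 UMIs per cell in the 5 named libraries. The libraries were not evenly spread over the populations: 77% of the RS and 99.6% of the ES came from the Cre/+ library, 84.5% of the diff. SpG did so too, and 646 of the 1292 undiff. SpG came from the 11 dpp library. Of the other somatic cells, 78.8% came from the Nfya-CKO library. Stage, age and library can therefore not be told apart. Marker genes were highest where the population names place them in most cases: the 5 undifferentiated spermatogonia markers summed to 17.2 UMIs per 10000 in undiff. SpG and 17.8 in Nfya-CKO SpG, the 4 pachytene markers to 13.9 in mP/lP, and the 8 spermatid markers to 42.3 in RS and 124 in ES. The diff. SpG held 12.6 of the same spermatid sum, against 0.928 in undiff. SpG and 0.0683 in pL. Other somatic cells held 6.28 and the unknown group 8.21, and the part of spermatid RNA in their values below was not tested. Single undifferentiated spermatogonia markers moved apart: Zbtb16 was 8.74 in undiff. SpG and 4.15 in Nfya-CKO SpG, and Uchl1 was 5.88 and 11.04. Id4 was 0.682 in undiff. SpG and 0.29 in Nfya-CKO SpG, and was highest in mP/lP at 1.57. Of these 5 markers, 2 were at least 2-fold lower in Nfya-CKO SpG (3.08% of genes) and 0 higher (4.09% of genes). Nfya itself, the deleted gene, was listed at 0.456 UMIs per 10000 in undiff. SpG, 0.667 in diff. SpG and 1.11 in Nfya-CKO SpG, so the deposited RNA value of the targeted gene was not reduced in these cells; the counted region need not lie in the deleted exons.

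The genes are scattered over the genome apart from the Catsperg pair. In mm10, with RefSeq GRCm38.p6 gene bounds, Catsper1 lies on the plus strand at chr19:5335615-5344281, Catsper2 on the minus strand at chr2:121391633-121414598, Catsper3 on the plus strand at chr13:55784500-55824048 and Catsper4 on the minus strand at chr4:134211965-134227431. Catsperb lies on the plus strand at chr12:101404645-101626009, and the paralogs Catsperg1 and Catsperg2 lie on the minus strand at chr7:29181532-29215589 and chr7:29697217-29727049. Kcnu1 lies on the plus strand at chr8:25848627-25937943 and Hvcn1 on the plus strand at chr5:122206805-122242297. Start sites of other genes stand close to several of them. The start site of Pdia3, an endoplasmic reticulum thiol isomerase gene on the other strand, is 110 bp from the Catsper2 start in the promoter table, that of the non-coding RNA gene 4930451E10Rik is 111 bp from the Catsper3 start, and that of Ash2l, a histone methyltransferase subunit gene, is 933 bp from Kcnu1. Because Catsperg1 and Catsperg2 are close paralogs and only unique alignments were kept, their separate values are uncertain.

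Promoter sequences were taken from RefSeq GRCm38.p6 for the members with an entry in the promoter table, and 4 are shown because their accessibility took contrasting courses: that of Catsper2 was open from spermatogonia on, and those of Catsper3, Catsper4 and Catsperb were lowest or second lowest of the 9 germ cell populations in undiff. SpG. Each runs 5′ to 3′ on the strand of its gene, from 250 bases before the start to 50 bases from it onward, and capitals mark the 5 letters CCAAT, the core that NF-Y binds, read on either strand (ATTGG where it lies on the other strand).
Catsper2 (minus strand, chr2:121413743-121414042): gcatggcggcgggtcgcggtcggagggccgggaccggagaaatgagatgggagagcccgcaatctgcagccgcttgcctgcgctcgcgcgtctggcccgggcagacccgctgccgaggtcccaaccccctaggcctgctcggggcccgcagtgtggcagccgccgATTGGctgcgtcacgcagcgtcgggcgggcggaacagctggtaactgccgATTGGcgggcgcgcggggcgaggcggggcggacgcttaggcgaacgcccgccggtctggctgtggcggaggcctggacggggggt
Catsper3 (plus strand, chr13:55784329-55784628): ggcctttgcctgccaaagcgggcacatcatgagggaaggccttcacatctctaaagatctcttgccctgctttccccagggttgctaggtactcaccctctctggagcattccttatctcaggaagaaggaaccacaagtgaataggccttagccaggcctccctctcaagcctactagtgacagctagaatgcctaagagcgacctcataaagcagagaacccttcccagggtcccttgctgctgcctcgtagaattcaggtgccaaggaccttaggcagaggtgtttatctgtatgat
Catsper4 (minus strand, chr4:134227334-134227633): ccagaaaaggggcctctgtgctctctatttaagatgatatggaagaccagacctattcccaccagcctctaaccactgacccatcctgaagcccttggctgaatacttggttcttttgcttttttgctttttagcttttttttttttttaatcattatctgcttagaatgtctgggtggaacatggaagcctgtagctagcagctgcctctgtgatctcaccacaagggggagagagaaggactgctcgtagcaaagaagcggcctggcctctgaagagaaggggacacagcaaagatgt
Catsperb (plus strand, chr12:101404423-101404722): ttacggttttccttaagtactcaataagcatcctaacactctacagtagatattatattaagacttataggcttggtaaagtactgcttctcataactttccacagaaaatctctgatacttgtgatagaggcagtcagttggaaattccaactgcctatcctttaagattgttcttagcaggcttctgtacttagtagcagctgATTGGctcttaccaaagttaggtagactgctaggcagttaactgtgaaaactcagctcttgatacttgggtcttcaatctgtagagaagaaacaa
The Catsper2 window held 41 CpG dinucleotides, while those of Catsper3, Catsper4 and Catsperb held 3, 2 and 1, against a median of 7 over 32851 promoters. The windows of the 2 Catsperg1 starts, not shown, held 9 and 8, and Catsperg1 was also open in spermatogonia. CCAAT was found 2 times in the Catsper2 window, 85 and 35 bases before the start and both on the other strand, and once in the Catsperb window, 45 bases before the start. It was not in the windows of Catsper3, Catsper4 or either of the 2 Catsperg1 starts, and 37.4% of all promoters of this length hold it. The Catsper2 window also held the GC box GGGCGG 3 times, 2 of which overlap, a motif found in 35.7% of promoters on either strand. Catsper1, Catsperg2, Kcnu1 and Hvcn1 are named only.

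RNA of the 4 pore genes did not follow a common course. Catsper1, Catsper3 and Catsper4 RNA was highest in RS, whereas Catsper2 RNA was highest in D and was already 93.2% of that level in mP/lP. The scRNA-seq levels below are in UMIs per 10000 of a cell's UMIs, averaged over the cells of a population.

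Catsper1 RNA was 0.0179 in undiff. SpG, 0.147 in diff. SpG, 0.00697 in pL, 0.0277 in eL/L/Z, 0.101 in L/Z/eP, 0.103 in mP/lP, 0.316 in D, 1.29 in RS and 0.275 in ES. It was thus 4.09-fold higher in RS than in D, the next highest population. In the remaining populations it was 0.00185 in Sertoli cells, 0.0787 in other somatic cells, 0.234 in the unknown group and 0.0278 in Nfya-CKO SpG. The undiff. SpG value corresponds to about 21.5 UMIs over all their cells and the RS value to about 2014.3, so the low end rests on few molecules.

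Catsper3 RNA was 0.0405 in undiff. SpG, 0.163 in diff. SpG, 0.0163 in pL, 0.0504 in eL/L/Z, 0.134 in L/Z/eP, 0.131 in mP/lP, 0.407 in D, 1.38 in RS and 0.434 in ES. RS stood 3.19-fold above ES, its neighbor in the order, and ES and D cannot be ordered without replicates. Its level was 0.00849 in Sertoli cells, 0.0944 in other somatic cells, 0.0141 in the unknown group and 0.0362 in Nfya-CKO SpG.

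Catsper4 RNA was 0.0836 in undiff. SpG, 0.404 in diff. SpG, 0.0155 in pL, 0.0914 in eL/L/Z, 0.348 in L/Z/eP, 0.306 in mP/lP, 1.08 in D, 3.66 in RS and 0.605 in ES. The rise from mP/lP to RS was 12-fold, and the drop from RS to ES 6.05-fold. It was 0.00377 in Sertoli cells, 0.175 in other somatic cells, 0.26 in the unknown group and 0.069 in Nfya-CKO SpG.

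Catsper2 RNA was 0.494 in undiff. SpG, 1.1 in diff. SpG, 0.3003 in pL, 1.12 in eL/L/Z, 3.62 in L/Z/eP, 4.92 in mP/lP, 5.28 in D, 2.39 in RS and 1.54 in ES. D and mP/lP were 1.07-fold apart and cannot be ordered without replicates. It was 0.136 in Sertoli cells, 0.886 in other somatic cells, 1.39 in the unknown group and 0.557 in Nfya-CKO SpG. In UMIs per 10000, the largest step up from one population to the next led into L/Z/eP for Catsper2 and into RS for the other pore genes. By fold the steps ranked otherwise, and Catsper2 and Catsper4 both had their largest from pL to eL/L/Z.

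**Figure D1:**
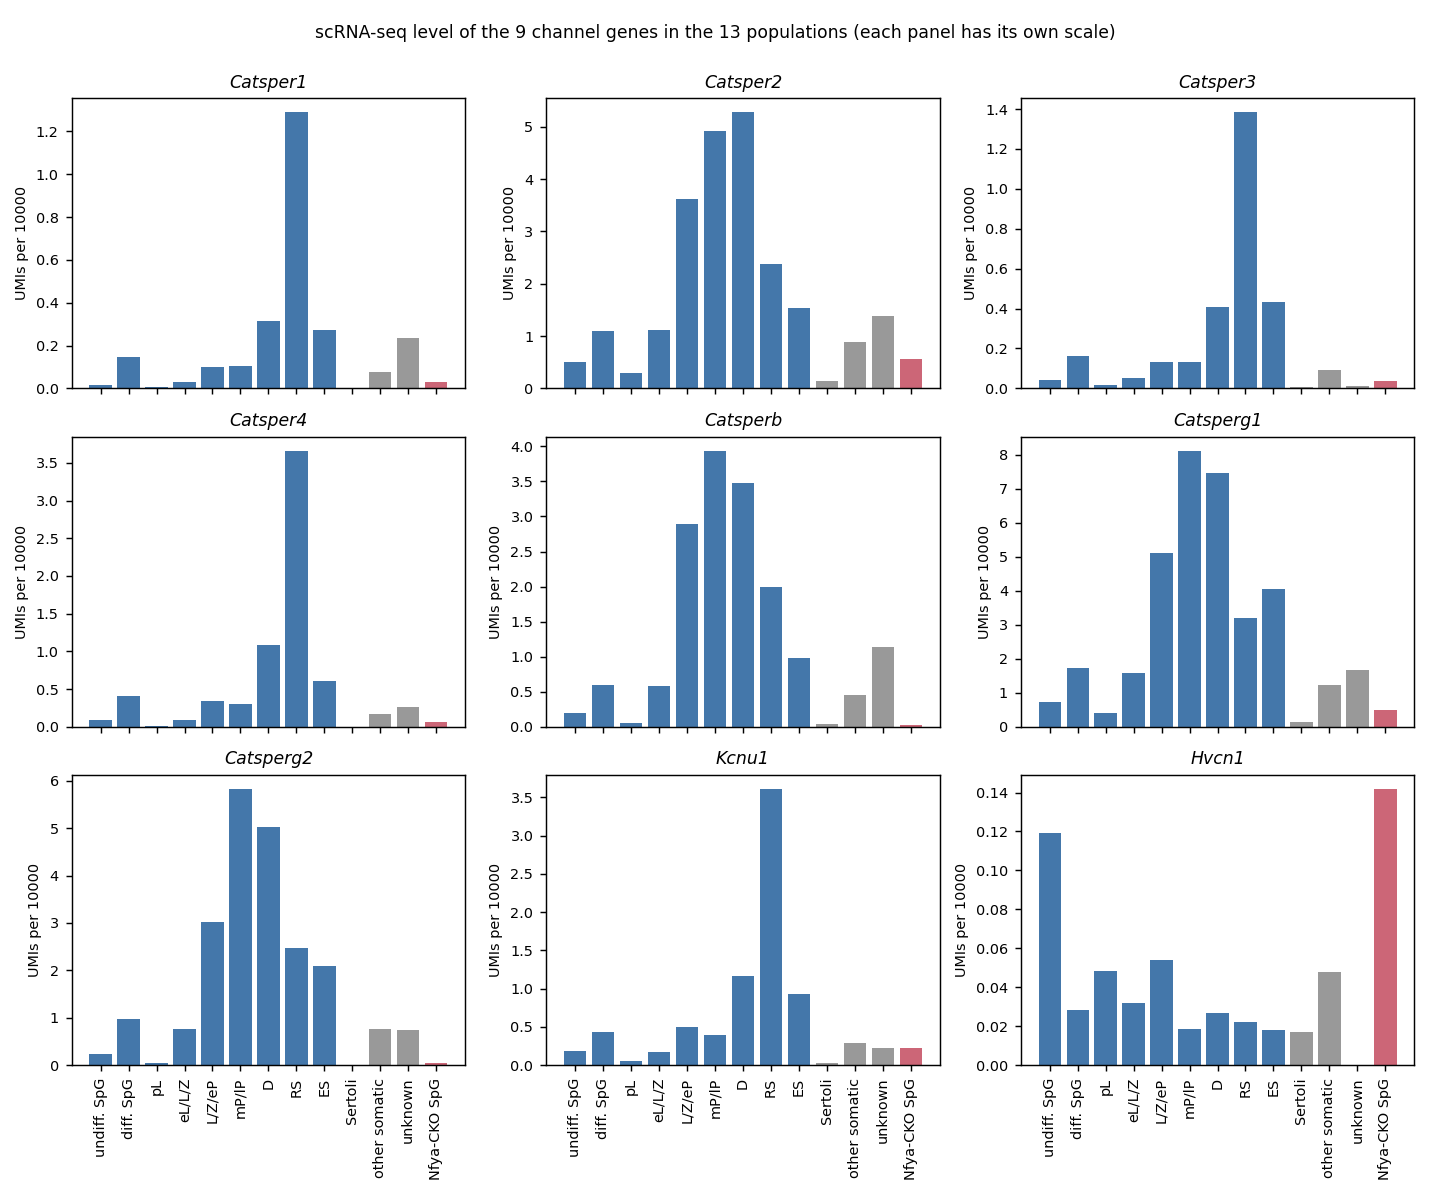
scRNA-seq level (UMIs per 10000, linear axis from 0, each panel on its own scale) of the 9 channel genes in the 9 germ cell populations (blue), 3 other populations (grey) and Nfya-CKO spermatogonia (red); each bar is 1 pooled value without error. Catsper1, Catsper3, Catsper4 and Kcnu1 have their tallest bar in RS, Catsper2, Catsperb, Catsperg1 and Catsperg2 in mP/lP or D, and Hvcn1 in the 2 spermatogonial populations at its left and right ends.

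The auxiliary subunit genes followed Catsper2 rather than the other pore genes, and their RNA was highest in mP/lP and D. In mP/lP it stood 1.13-fold (Catsperb), 1.09-fold (Catsperg1) and 1.16-fold (Catsperg2) above D, and these cannot be ordered without replicates. Catsperb RNA was 0.196 in undiff. SpG, 0.597 in diff. SpG, 0.0498 in pL, 0.585 in eL/L/Z, 2.89 in L/Z/eP, 3.94 in mP/lP, 3.47 in D, 1.999 in RS and 0.977 in ES. It was 0.0352 in Sertoli cells, 0.457 in other somatic cells, 1.13 in the unknown group and 0.0276 in Nfya-CKO SpG. From undiff. SpG to mP/lP it was 20.1-fold higher.

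Catsperg1 RNA was 0.716 in undiff. SpG, 1.73 in diff. SpG, 0.396 in pL, 1.59 in eL/L/Z, 5.1 in L/Z/eP, 8.12 in mP/lP, 7.45 in D, 3.19 in RS and 4.04 in ES. It was the only member with a higher RNA value in ES than in RS. Its paralog Catsperg2 was 0.239 in undiff. SpG, 0.965 in diff. SpG, 0.0466 in pL, 0.755 in eL/L/Z, 3.03 in L/Z/eP, 5.82 in mP/lP, 5.02 in D, 2.47 in RS and 2.08 in ES. In Sertoli cells, other somatic cells, the unknown group and Nfya-CKO SpG, Catsperg1 was 0.141, 1.23, 1.67 and 0.482. In the same order, Catsperg2 was 0.0149, 0.767, 0.74 and 0.0518. Both paralogs kept mP/lP and D as their highest populations, and for both these were under 1.2-fold apart.

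Kcnu1 RNA followed Catsper1, Catsper3 and Catsper4. It was 0.185 in undiff. SpG, 0.438 in diff. SpG, 0.0511 in pL, 0.171 in eL/L/Z, 0.495 in L/Z/eP, 0.392 in mP/lP, 1.17 in D, 3.61 in RS and 0.928 in ES. RS was 9.2-fold above mP/lP and 3.1-fold above D. It was 0.0255 in Sertoli cells, 0.286 in other somatic cells, 0.231 in the unknown group and 0.229 in Nfya-CKO SpG. The gene for its partner subunit, Lrrc52, was singled out after its values were seen, and it too was highest in RS, at 0.457 against 0.0302 in mP/lP and 0.216 in ES.

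Hvcn1 went the other way. Its RNA was 0.119 in undiff. SpG, 0.0282 in diff. SpG, 0.0484 in pL, 0.032 in eL/L/Z, 0.0542 in L/Z/eP, 0.0184 in mP/lP, 0.0266 in D, 0.0221 in RS and 0.0181 in ES. It was 0.0173 in Sertoli cells, 0.048 in other somatic cells and 0.142 in Nfya-CKO SpG, and was listed at 0 in the 99 cells of the unknown group. Undiff. SpG were 5.39-fold above RS, a difference that rests on about 143 and 34.6 UMIs in all. Because the mean over the 13 populations was under 0.05, Hvcn1 was left out of the counts of genes changed 2-fold, and 8 of the 9 members entered them.

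In percent of each gene's highest germ cell level, the RS-high genes were closely alike. In D, Catsper1 stood at 24.5%, Catsper3 at 29.4%, Catsper4 at 29.6% and Kcnu1 at 32.3%, and in mP/lP they ranged from 7.98% to 10.9%. The genes high in mP/lP or D had reached 52% (Catsperg2) to 73.4% (Catsperb) in L/Z/eP and were at 39.3% (Catsperg1) to 50.7% (Catsperb) in RS. In diff. SpG, the RS-high genes stood at 11% to 12.1% of their highest level, above L/Z/eP for Catsper1, Catsper3 and Catsper4. Spermatid RNAs moved with these values: Prm1, which encodes a protamine of condensed sperm chromatin, was 0.155 in undiff. SpG, 3.94 in diff. SpG and 0.135 in L/Z/eP, and the acrosomal gene Acrv1 was 0.157, 1.18 and 0.385. Their part in the diff. SpG values was not tested. Over the 13 populations on the log2(value + 0.1) scale, Pearson's r between the RS-high members ran from 0.896 to 0.981, and between Catsper2, Catsperb, Catsperg1 and Catsperg2 from 0.963 to 0.986. Across these groupings it ran from 0.609 to 0.769. The groupings were formed from the same 13 pooled values, which share libraries, so a higher r within than across them is built in.

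**Figure D2:**
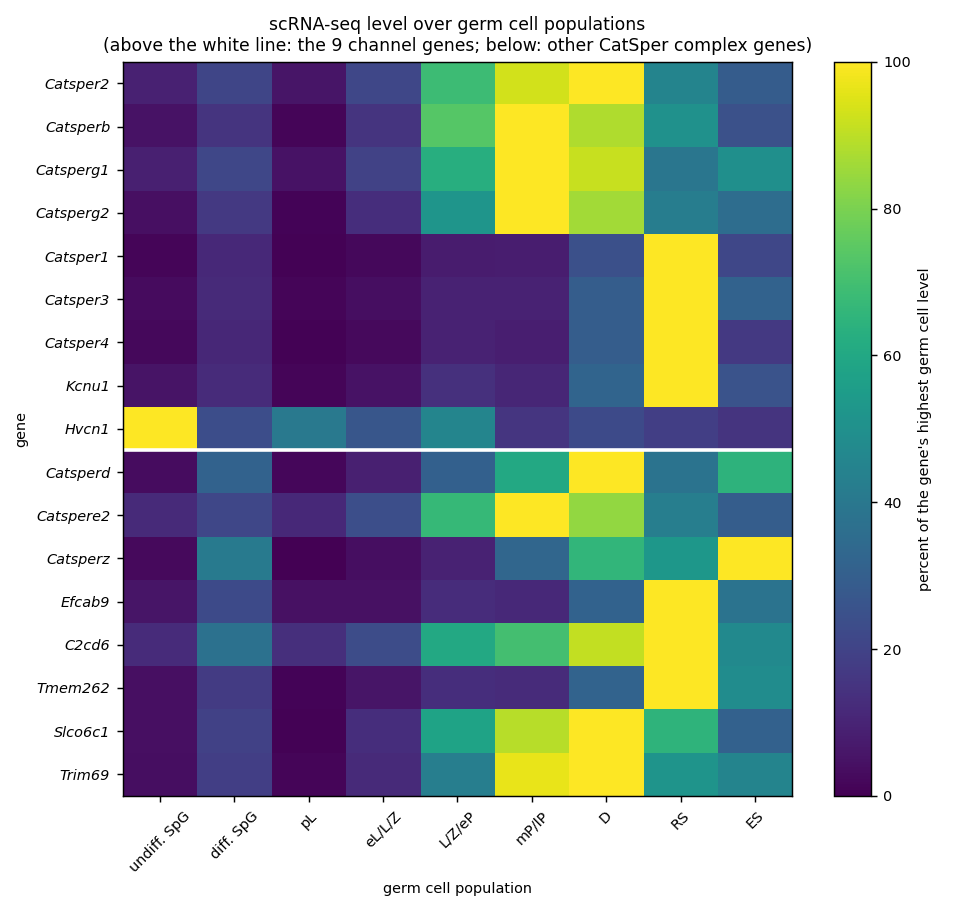
scRNA-seq level as a percent of each gene's highest germ cell level (color) for the 9 channel genes and 8 further CatSper complex genes (rows) over 9 germ cell populations (columns); each tile is 1 pooled value. Catsper2, Catsperb, Catsperg1 and Catsperg2 are bright from L/Z/eP to D, and Catsper1, Catsper3, Catsper4 and Kcnu1 are brightest in RS, with 24.5% to 32.3% in D and 16.5% to 31.4% in ES.

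In comparisons of populations, the calls are folds on the log2(value + 0.1) scale, which understates the change of low genes. From undiff. SpG to RS, 8 of the 8 members that passed the filter were at least 2-fold higher, against 22.4% of the 15250 genes tested in this direction. Their median log2 difference was 3.16 against -0.27 over all genes, with Catsperg1 lowest at 2.01 and Catsper4 highest at 4.36. The comparison joins 2 courses. From mP/lP to RS, a comparison added after seeing the data, Catsper1, Catsper3, Catsper4 and Kcnu1 were 4 of 8 members at least 2-fold higher (17.6% of genes) and Catsper2, Catsperg1 and Catsperg2 were 3 of 8 at least 2-fold lower (9.36% of genes). Catsperb, at a log2 difference of -0.94, stood just inside 2-fold.

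From L/Z/eP to mP/lP, 0 of 8 members were 2-fold higher, against 1.38% of all genes. Catsperg2 came nearest, with a log2 difference of 0.92, and Kcnu1 was lowest, at -0.27. From RS to ES, 4 of 8 members were at least 2-fold lower, against 10% of all genes: Catsper1 fell by 1.89 on the log2 scale, Catsper3 by 1.47, Catsper4 by 2.42 and Kcnu1 by 1.85. These are the 4 members whose RNA was highest in RS, which fixes the direction but not the size of the change. Catsperb, at -0.96, was again just inside the threshold, and Catsperg1 was 0.33 higher in ES. ES values also moved with RNA of other cells: the 4 Leydig markers summed to 0.759 in RS and 5.56 in ES, and the 5 Sertoli markers to 1.15 and 8.56, and their part in the ES values was not tested.

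The other genes of the complex showed both courses as well. Of the 10 on the list, 8 were in the matrix, and 8 of 8 were at least 2-fold higher in RS than in undiff. SpG (22.4% of genes). Catspere2, an auxiliary subunit gene, was highest in mP/lP at 4.76, with 3.98 in D and 2.04 in RS. Catsperd, which encodes another auxiliary subunit, was highest in D at 4.94, with 1.88 in RS and 3.2 in ES, and Trim69, a ubiquitin ligase gene, was at 0.952 in D and 0.493 in RS. Efcab9, which encodes the calcium-binding partner of CATSPERZ, was highest in RS at 1.09 against 0.128 in mP/lP, a course like that of Catsper1. C2cd6, needed for placing the complex in the tail, was at 1.05 in RS and 0.955 in D, which cannot be ordered. Catsperz had a course of its own, with 1.35 in mP/lP, 2.69 in D, 2.17 in RS and its highest level, 4.09, in ES. From RS to ES, 1 of these 8 genes, Efcab9, was 2-fold lower, near the 10% of all genes, and 0 were 2-fold higher (10.1% of genes).

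Of the 13 other genes of sperm ion transport, 10 passed the filter, and from undiff. SpG to RS 7 were at least 2-fold higher (22.4% of genes), 0 lower (26.7% of genes) and 3 within 2-fold. Lrrc52, counted among the 7, passed the filter only through its RS value, as did Spaca4 among the acrosome genes below. Slc9b2 was the opposite case and failed the filter only through its low RS value. It was 0.282 in undiff. SpG and 0.00473 in RS, a log2 difference of -1.87, so the count of 0 lower depends on the filter. Cftr, a chloride and bicarbonate channel gene, rose from 0.885 in undiff. SpG to 5.75 in RS, and Adcy10, the gene for the bicarbonate-activated adenylyl cyclase, from 0.71 to 3.98. Atp1a4, the sperm isoform of the sodium pump, was highest in ES at 2.75. Slc9b1, a sodium-proton exchanger gene, was 2.96 in mP/lP and 1.12 in RS. Kcnma1, the gene of a potassium channel related to that of Kcnu1, was highest in Sertoli cells at 3.28 and was 0.386 in RS. Atp2b4, a plasma membrane calcium pump gene, was 3.61 in the unknown group and 2.08 in Sertoli cells, above its germ cell levels. All 10 acrosome genes and all 10 outer dense fiber and fibrous sheath genes were at least 2-fold higher in RS than in undiff. SpG, with median log2 differences of 3.39 and 4.1, close to or above the 3.16 of the members.

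The genes whose RNA course was most like a member's were sought among 10858 genes that reached 0.5 in some population. Catsper1 was nearest to Dusp13 (Pearson's r = 0.993), Catsper3 to 1700071M16Rik (r = 0.997), Catsper4 to Izumo1 (r = 0.996), the gene of the sperm protein that binds the egg, and Kcnu1 to Mmel1 (r = 0.991). Catsper2 was nearest to Spag6l (r = 0.991), an axoneme gene, followed by Catspere2 (r = 0.99) and Cfap46 (r = 0.987). Catsperb was nearest to 4931423N10Rik (r = 0.994) and then Dnah7a (r = 0.993), an axonemal dynein gene, Catsperg1 to Pbx4 (r = 0.993) and then Spo11 (r = 0.99), the gene of the enzyme that makes meiotic double-strand breaks, and Catsperg2 to the transcript named 5-qF-14224 (r = 0.997) and then Ccdc39 (r = 0.996). Hvcn1 had no neighbor as close, with Gm20696 first at r = 0.916. None of the 27 places (3 for each member) was held by another member. The members are very few beside the 10858 genes searched, and Hvcn1 did not reach 0.5 and was not among them. The count therefore says little about how alike the members are.

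Chromatin accessibility separated the genes differently from RNA. The deposited scATAC-seq value of a gene is given here per 1000000 of a population's total signal. Promoter accessibility was defined in the methods as mean coverage of pooled tracks within 200 bp of the start, but whether the deposited matrix follows this definition is not given in the sources used here, so genes with close start sites were compared. For 898 pairs of neighboring protein-coding genes with start sites under 500 bp apart, the mean absolute log2 difference over the 13 populations had a median of 0.00593, whereas it was 0.174 for pairs 1000 to 2000 bp apart and 0.882 for pairs 5000 to 20000 bp apart. Genes with close start sites thus had nearly the same value. Across 24971 genes, which are not independent replicates, the value in undiff. SpG also had a Spearman's rho of 0.333 with gene length, so the region behind it was not settled. The total also includes mitochondrial signal, which made up 31.2% (pL) to 63.8% (L/Z/eP) of a germ cell population, so the levels are given as deposited and, where it matters, also scaled to nuclear genes alone. The value of Catsper2 differed from that of Pdia3 by at most 0.00997 per 1000000 in any population, and that of Catsper3 from 4930451E10Rik by at most 0.172. For Kcnu1 and Ash2l the mean absolute log2 difference was 0.246. The accessibility of Catsper2 and of Catsper3 cannot be told apart from that of these neighbors, while RNA of Catsper2 and Pdia3 differed: Pdia3 RNA was 5.69 UMIs per 10000 in undiff. SpG, 1.95 in D and lowest in RS at 1.45.

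Catsper1, Catsper3, Catsper4 and Catsperb had little signal in undiff. SpG and pL and were highest in spermatids. In diff. SpG they stood above both, and Catsper1 and Catsper4 were there also above mP/lP as deposited, though not on the nuclear scale. Catsper1 accessibility was 2.07 in undiff. SpG, 7.04 in diff. SpG, 2.72 in pL, 2.39 in eL/L/Z, 3.42 in L/Z/eP, 5.93 in mP/lP, 8.53 in D, 26.6 in RS and 20.04 in ES. Catsper3 accessibility was 1.36, 3.21, 0.799, 2.01, 2.81, 3.57, 7.61, 20.7 and 7.25 in the same order. For both, RS was the highest of the 13 populations, and for Catsper3 pL was the lowest germ cell population.

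Catsper4 accessibility was 2.99 in undiff. SpG, 12.1 in diff. SpG, 2.56 in pL, 3.32 in eL/L/Z, 3.89 in L/Z/eP, 7.96 in mP/lP, 13.8 in D, 45.9 in RS and 16.6 in ES. Catsperb accessibility was 0.635, 2.12, 0.752, 0.998, 2.1, 4.41, 6.77, 9.11 and 9.66 in the same order. Catsperb thus gained signal up to D and the spermatids, although its RNA was highest in mP/lP and D and lower in spermatids. RS and ES of Catsperb were 1.06-fold apart, and the ES values rest on 124 nuclei.

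Catsper2, Catsperg1 and Catsperg2 had a signal of at least 11.5 in every germ cell population, as did Kcnu1, whose course is given below. Catsper2 accessibility lay between 51.4 in mP/lP and 89.4 in pL over the germ cell populations, with 64.4 in undiff. SpG, 60.8 in D and 71.4 in RS. Scaled to nuclear genes alone it was flatter and in another order, from 108 in undiff. SpG to 147 in L/Z/eP. It was 50.3 (103 on the nuclear scale) in Sertoli cells, where Catsper2 RNA was lowest.

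Catsperg1 accessibility was 96.8 in undiff. SpG, 98.5 in diff. SpG, 83.8 in pL, 61.1 in eL/L/Z, 41.1 in L/Z/eP, 50.4 in mP/lP, 61.2 in D, 73.4 in RS and 63.3 in ES, against 23.2 in Sertoli cells. On the nuclear scale it was 163 in undiff. SpG and 112 to 127 from eL/L/Z to ES. Catsperg1 accessibility was thus highest in spermatogonia on both scales, ahead of the populations where its RNA was highest. Catsperg2 ran from 11.5 in ES to 28.2 in RS, with 27.2 in undiff. SpG and 18.8 in mP/lP, and was 4.96 in Sertoli cells, 5.72 in other somatic cells and 0.735 in the unknown group. From undiff. SpG to mP/lP the ratio was 0.798 for Catsper2, 0.521 for Catsperg1 and 0.693 for Catsperg2 as deposited, but 1.19, 0.78 and 1.04 on the nuclear scale, against medians over all genes of 0.749 and 1.12. On either scale these ratios were small beside the 9.95-fold to 24.4-fold higher RNA of the same genes.

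Kcnu1 accessibility stood between these patterns, with 18.5 in undiff. SpG, 24.4 in diff. SpG, 16.3 in pL, 14.0 in eL/L/Z, 12.9 in L/Z/eP, 22.5 in mP/lP, 30.9 in D, 37.03 in RS and 19.3 in ES. On the nuclear scale it was 31.2 in undiff. SpG, lowest in pL at 23.7, 35.5 in L/Z/eP and 61.97 in RS, so the low value in L/Z/eP was not kept. Ash2l moved with it, from 20.3 in undiff. SpG to 14.3 in L/Z/eP and 41.05 in RS as deposited, and from 34.2 to 39.5 and 68.7 on the nuclear scale. Hvcn1 accessibility was 3.75 in undiff. SpG, 6.41 in diff. SpG and 1.74 to 4.03 in the other germ cell populations, and was listed at 0 in the unknown group. It did not follow its RNA.

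**Figure D3:**
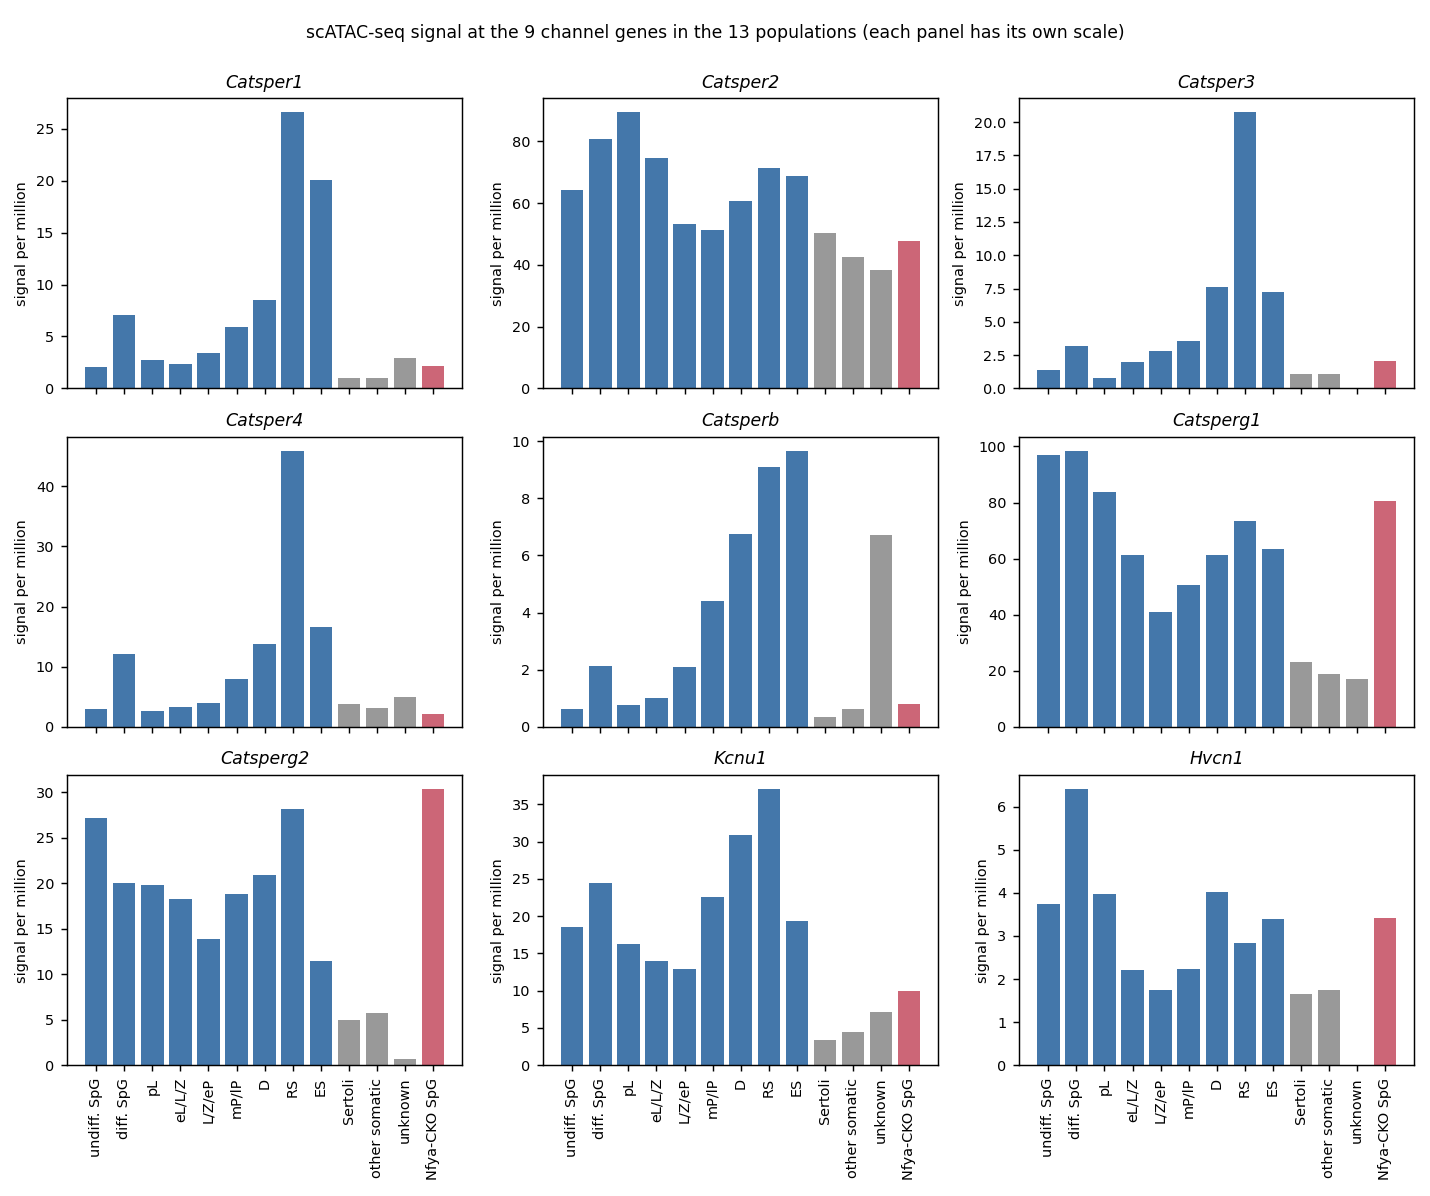
scATAC-seq signal (per 1000000 of a population's total, linear axis from 0, each panel on its own scale) of the 9 channel genes in the same 13 populations and colors; each bar is 1 pooled value without error. Catsper1, Catsper3 and Catsper4 rise to 26.6, 20.7 and 45.9 in RS, Catsperb reaches 9.66 in ES, and Catsper2 and Catsperg1 are high in spermatogonia already.

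From undiff. SpG to RS, 5 of 9 members were at least 1.5-fold more accessible, against 36.7% of the 30280 genes with signal in both populations. The ratio was 12.9 for Catsper1, 15.2 for Catsper3, 15.3 for Catsper4, 14.3 for Catsperb and 2.001 for Kcnu1. The other 4 ratios ran from 0.755 for Hvcn1 to 1.11 for Catsper2, so the members fell into genes with ratios over 12, Kcnu1, and genes near 1. The median was 2.001 against 1.18 over all genes. From undiff. SpG to mP/lP, Catsper1, Catsper3, Catsper4 and Catsperb, 4 of 9, were already at least 1.5-fold higher (13% of genes), with ratios of 2.87, 2.62, 2.66 and 6.94, and Catsperg1 and Hvcn1, 2 of 9, were at least 1.5-fold lower (41.5% of genes). On the nuclear scale, Kcnu1 joined the higher genes (5 of 9, 28.6% of genes) and 0 of 9 were lower (22.6% of genes). Of the 8 other complex genes, 4 were at least 1.5-fold more accessible in RS than in undiff. SpG, against the 36.7% of all genes, and 1 was as much lower, against 21.1%. Of the 10 acrosome genes, 8 were higher.

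Over the 9 germ cell populations, the correlation of RNA with accessibility on log scales differed widely in sign. Pearson's r was 0.992 for Catsper3, 0.944 for Catsper4, 0.921 for Catsper1, 0.753 for Kcnu1 and 0.693 for Catsperb. It was -0.77 for Catsper2, -0.73 for Catsperg1, -0.26 for Catsperg2 and 0.04 for Hvcn1. On the nuclear scale the first 5 stayed between 0.802 and 0.965, Catsperg1 was at -0.42, and the sign flipped for Catsper2 (0.234), Catsperg2 (0.273) and Hvcn1 (-0.02). These are given as a description of 9 pooled values per gene that share nuclei and libraries.

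In Nfya-CKO SpG, most of the channel genes had RNA levels within 2-fold of those in undiff. SpG. Catsperb and Catsperg2 were 2 of 8 members at least 2-fold lower (3.08% of genes), and 0 were at least 2-fold higher (4.09% of genes). Catsper1, Catsper3 and Catsper4, at 0.0179, 0.0405 and 0.0836 in undiff. SpG, were under the pseudocount of 0.1. They could therefore not be called 2-fold lower, and their Nfya-CKO values were 0.0278, 0.0362 and 0.069. Catsperb was 0.0276 in Nfya-CKO SpG and 0.196 in undiff. SpG, a log2 difference of -1.21, and Catsperg2 was 0.0518 and 0.239, a difference of -1.16. About 24.9 and 46.7 UMIs in all stand behind the Nfya-CKO values. Catsperg1 was 0.482 and 0.716 (-0.49), Catsper2 0.557 and 0.494 (0.15), and Kcnu1 0.229 and 0.185 (0.21). Against pL, a comparison added after seeing the data, 0 of 8 members were 2-fold lower (4.73% of genes) and 1, Kcnu1, was higher (9.05% of genes), while Catsperg2 was nearly level at 0.05. Only Catsper2 and Catsperg1, at 0.3003 and 0.396, were above the pseudocount of 0.1 in pL. The other members could not be called 2-fold lower against pL at any level, so the count of 0 says little about them. With a pseudocount of 0.5 no member was 2-fold lower, but Catsperb and Catsperg2, under 0.5 in undiff. SpG, could not be called lower at that setting. Against diff. SpG, whose spermatid marker sum was 12.6, 4 of 8 were 2-fold lower (10.5% of genes) and 0 higher (6.86% of genes).

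RNA of later germ cells and of Leydig cells moved with these differences, and its part in them was not tested. The spermatid markers summed to 0.928 in undiff. SpG, 0.0683 in pL and 0.264 in Nfya-CKO SpG, with Prm1 at 0.155, 0.00525 and 0.0171. The pachytene markers summed to 1.19, 0.985 and 0.588, with Piwil1, the gene of a pachytene piRNA-binding protein, at 0.712, 0.282 and 0.255. The 4 Leydig markers summed to 0.172 in undiff. SpG and 48.4 in Nfya-CKO SpG, where Insl3, a Leydig cell hormone gene, was 39.8 against 0.064. All the 11 leukocyte markers together were 0.82 in Nfya-CKO SpG and 0.227 in undiff. SpG. Genotype, age and library cannot be told apart in this comparison, because 102 of the 1292 undiff. SpG came from the 8-week-old Cre/+ library.

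**Figure D4:**
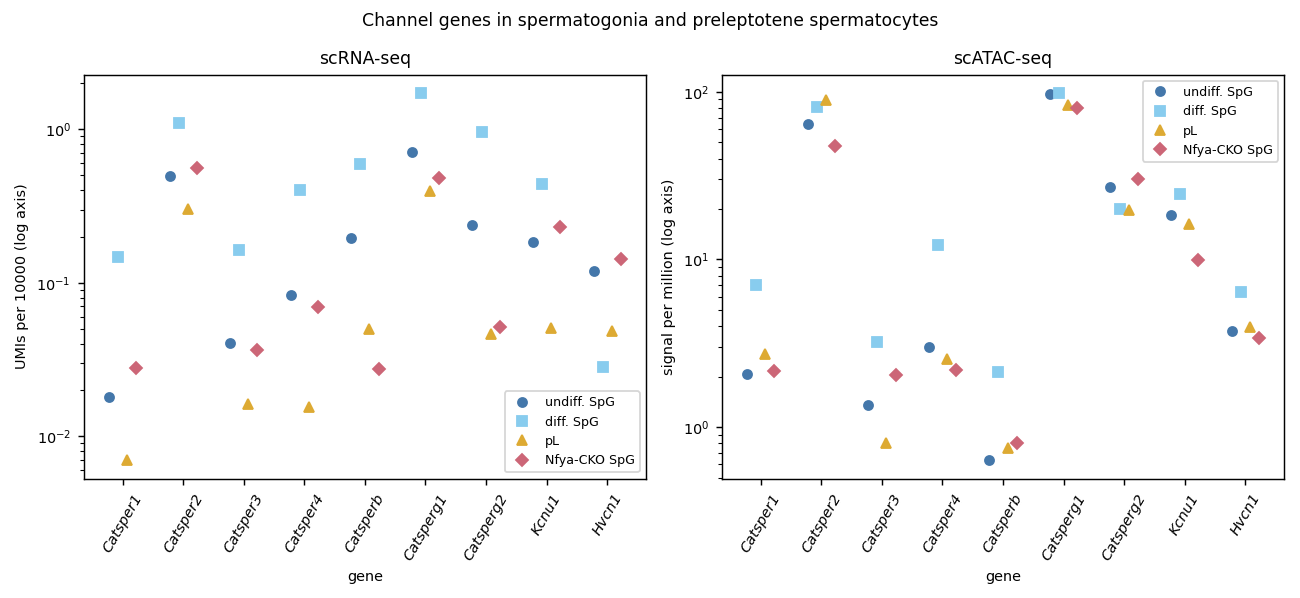
Levels of the 9 channel genes in undiff. SpG (circles), diff. SpG (squares), pL (triangles) and Nfya-CKO SpG (diamonds), as scRNA-seq UMIs per 10000 (left) and scATAC-seq signal per 1000000 (right), both on log axes; each point is 1 pooled value. Catsperb and Catsperg2 RNA in Nfya-CKO SpG (0.0276 and 0.0518) lies beside pL (0.0498 and 0.0466) and below undiff. SpG (0.196 and 0.239), and Kcnu1 accessibility is lowest in Nfya-CKO SpG (9.96).

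Accessibility in Nfya-CKO SpG was below that of undiff. SpG for 5 of 9 members, against 52.6% of the 29939 genes compared, and the median ratio was 0.907 against 0.978. Against diff. SpG, 8 of 9 members were lower, compared with 54.7% of genes, and the median ratio was 0.531 against 0.913. Spermatid genes moved further in this comparison, with 7 of 8 spermatid markers lower (median 0.339) and 8 of 10 acrosome genes (median 0.358). The 5 undifferentiated spermatogonia markers had a median of 1.01. The part of spermatid signal in the members' ratios was not tested. The ratio over all genes depended on the signal, with a median of 1.19 for genes with 0.5 to 5 per 1000000 in undiff. SpG and 0.786 for those with 50 to 100, so each member was read against genes of like signal. Catsper2 went from 64.4 to 47.7, a ratio of 0.741 (0.816 on the nuclear scale), and 36.2% of the 2276 genes of like signal had a lower one. Catsperg1 went from 96.8 to 80.6, a ratio of 0.833, with 65.8% lower. Both values thus stood in the middle of their class. Kcnu1 went from 18.5 to 9.96, a ratio of 0.539 (0.593 on the nuclear scale), and 0.727% of the 8113 genes with 5 to 25 per 1000000 had a lower ratio. Ash2l, whose start site lies 933 bp away, had a ratio of 0.588. Catsperg2 stood at the other end, from 27.2 to 30.3, a ratio of 1.12, with 93.7% of its 7948 genes lower. Catsper1, Catsper3, Catsper4, Catsperb and Hvcn1, with under 5 per 1000000 in undiff. SpG, had ratios of 1.04, 1.497, 0.727, 1.27 and 0.907, and 20.4% to 66.7% of genes of like signal had lower ones. Kcnu1 RNA was not lower in Nfya-CKO SpG than in undiff. SpG, as given above, but it was lower than in diff. SpG (0.229 against 0.438).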

How the data were processed

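Single nuclei of mouse testis were profiled for RNA and open chromatin together (BD Rhapsody), 1 library per condition and assay. RNA reads were aligned by the authors to mm10 (STAR 2.7.10b), who kept unique alignments, collapsed UMIs, removed cells with fewer than 500 genes or at least 5% mitochondrial reads, and used Seurat 5.2.1 and DoubletFinder. For scATAC-seq they used BWA 0.7.12, shifted fragment ends with BEDTools 2.27.1, and removed nuclei with under 1000 fragments or a TSS score under 4 in ArchR 1.0.3. Whether introns or strand were used in counting is not given in the sources used here. The deposited matrices hold the natural log of 1 plus a population mean per 10000. The deposited per-cell tables hold counts of UMIs and fragments, which gave the depths, and 22 other per-cell columns were not used.

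Here exp(value) - 1 was taken, and the scATAC-seq values were scaled to 1000000 per population. Folds of RNA used a pseudocount of 0.1 and genes with a mean of at least 0.05 over the 13 populations. Thresholds were 2-fold for RNA and 1.5-fold for accessibility. The number of UMIs behind a level was estimated from the median depth. Intervals were not computed, since the counts behind a mean of proportions are not in the matrices. The fold counting was tested on simulated data, and the outcome is not reported here. The alternatives were other pseudocounts, filters, scalings and control populations. The members were fixed by name. Of the other lists, at most 6 genes were named by value, those highest in any population, besides Lrrc52 and Slc9b2. Likeness was given by the 3 highest Pearson coefficients, of which those nearest are named. The members and lists were chosen with earlier results of these data known. Sequences came from RefSeq GRCm38.p6. Python 3.11.15, pandas 2.3.3 and numpy 2.4.6 were used.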

Additional observations from a re-analysis of the deposited data

How the results depend on the processing

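Of 53 counts and medians recomputed under an alternative, 45 stayed within 1.5-fold of the reported value. The exceptions concern mostly Nfya-CKO spermatogonia. The number of members with RNA at least 2-fold lower there than in undifferentiated spermatogonia was 2 (3.08% of genes). With a pseudocount of 0.5 it was 0, but Catsperb and Catsperg2, under 0.5 in undifferentiated spermatogonia, could not be called lower at that setting. It was 4 against differentiating spermatogonia (10.5% of genes) and 0 against preleptotene spermatocytes (4.73% of genes, added after seeing the data). Only Catsper2 and Catsperg1 were above the pseudocount of 0.1 in preleptotene spermatocytes, so no other member could be called lower there. For accessibility, 5 members had a ratio under 1 (52.6% of genes), but 8 against differentiating spermatogonia (54.7% of genes). There the median ratio was 0.531 against 0.913 over all genes. With a signal of at least 5 required in both populations, only Catsper2, Catsperg1, Catsperg2 and Kcnu1 remained. Of these, 3 had a ratio under 1 to undifferentiated spermatogonia, all but Catsperg2. The count is lower than 5 because fewer members entered. The share of all genes at this setting is not given. By signal in undifferentiated spermatogonia alone, 37.2% of genes with 5 to 25 and 96.3% with 50 to 100 had a ratio under 1. With mP/lP in place of round spermatids the median accessibility ratio to undifferentiated spermatogonia was 1.22. Mitochondrial genes hold 31.2% to 64.5% of the scATAC-seq signal of a population. Scaling without them took the number of members at least 1.5-fold less accessible in mP/lP than in undifferentiated spermatogonia from 2 to 0 (added after seeing the data), and brought the median Nfya-CKO ratio from 0.907 to 0.998. This scaling moves the ratios of all nuclear genes in a comparison by the same factor, so the place of the members among them stays the same. Of 234 values of single members, 58 moved by more than 1.5-fold, 23 of them with differentiating spermatogonia as control, and 1 of those past the threshold changed sign: Catsperg2 RNA in Nfya-CKO spermatogonia, at -1.16 (log2) against undifferentiated spermatogonia, was 0.0501 against preleptotene spermatocytes. Within 2-fold, Catsper3, Catsper4 and Catsperg1 also changed sign against preleptotene spermatocytes, and Catsper1, Catsper2 and Kcnu1 against differentiating spermatogonia. Causes were not tested beyond these settings. No paired analysis was possible because each condition has 1 library and the matrices pool libraries, and for the same reason no library could be left out. Low RNA levels rest on few UMIs, and the unknown group on 99 cells.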
